A study of Mus musculus with 8 samples.

Results

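The genes described here encode subunits and close partners of the Polycomb, trithorax and BAF chromatin complexes. They are 39 mouse genes chosen by symbol, of which 38 stood in the deposited expression table (38610 symbols) and 36 passed the filter on low values that left 13188 genes for testing. Bmi1 and Cbx8 lay below that filter, and Phc1 was not analysed here. Expression was measured by RNA-seq in CJ9 mouse embryonic stem cells of strain 129S4/SvJae, kept without leukemia inhibitory factor (LIF) and collected at day 4. LIF holds mouse embryonic stem cells in self-renewal, and its withdrawal lets them differentiate. All 8 libraries share the line, the strain, LIF withdrawal and the day. The groups were EVX1 KO (3 libraries), Evx1as KO (3 libraries) and WT (2 libraries), and the knockouts were made by CRISPR. EVX1 is a homeobox protein active in the primitive streak, and Evx1as is the long noncoding RNA transcribed antisense next to it. Libraries are called by group and by the number in their title (EVX1 KO 1). The labels do not say whether libraries of one group came from separate clones or cultures, so the p-values measure only the spread between these libraries, which may be technical.

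Polycomb and trithorax complexes act on histones around developmental genes in opposite directions. Polycomb repressive complex 2 (PRC2) methylates lysine 27 of histone H3, a repressive mark, and PRC1 ubiquitinates histone H2A and compacts chromatin. Some PRC1 forms bind the PRC2 mark through a chromodomain protein of the CBX family, and others are brought to unmethylated CpG islands by KDM2B. The trithorax (COMPASS) complexes methylate lysine 4 of histone H3 at active genes, and the BAF complexes use ATP to move nucleosomes. Embryonic stem cells depend on these complexes to hold lineage genes off or poised until they differentiate.

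RefSeq promoter windows on GRCm38.p6 were found for 33 of the 38 genes (46 start sites), each read as the 250 bases before the start. They held a median of 21 CpG dinucleotides (range 1 to 40), against 16 in 11356 promoters of tested genes and 6 in 32851 promoters of all genes. The GC box GGGCGG, searched on both strands like all motifs here, lay in 33 of the 46 windows (71.7%), against 60.0% of tested-gene promoters and 32.7% of all promoters. The other motifs were found in 32.6% of the windows for CCAAT (35.0% of tested-gene promoters), 13.0% for the E-box CACGTG (8.37%), 6.52% for the ETS letters CCGGAAG (13.5%), 4.35% for the T-box letters AGGTGTG (3.89%) and 2.17% for TATAAA (6.01%). The E2F letters TTTGGCGC and TTTCGCGC were in none of the 46 windows (1.34% of tested-gene promoters). A match is a description of letters and not a bound site. The windows printed here are those of Ezh1 and Ezh2, the alternative catalytic subunits of PRC2, and of Cbx6, Wdr5 and Rbbp5, the 3 genes whose difference between the knockouts was called under every setting tried. Each is written 5′ to 3′ on the gene's strand, with motif matches in capitals. The windows are chr11:101226464-101226713 (minus strand) for Ezh1, chr6:47595031-47595280 (minus) for Ezh2, chr15:79834334-79834583 (minus) for Cbx6, chr2:27514897-27515146 (plus) for Wdr5 and chr1:132477117-132477366 (plus) for Rbbp5.
Ezh1: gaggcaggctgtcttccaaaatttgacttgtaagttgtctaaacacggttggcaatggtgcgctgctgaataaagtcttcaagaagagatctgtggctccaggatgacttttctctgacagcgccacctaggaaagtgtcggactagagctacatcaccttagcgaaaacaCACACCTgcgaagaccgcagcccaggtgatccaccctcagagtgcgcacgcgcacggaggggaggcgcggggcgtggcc
Ezh2: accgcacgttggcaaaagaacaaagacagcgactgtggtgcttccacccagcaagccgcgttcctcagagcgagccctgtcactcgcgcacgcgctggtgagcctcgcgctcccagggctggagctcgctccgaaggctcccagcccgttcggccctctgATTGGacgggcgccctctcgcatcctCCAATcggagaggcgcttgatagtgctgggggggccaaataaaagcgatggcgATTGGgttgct
Cbx6: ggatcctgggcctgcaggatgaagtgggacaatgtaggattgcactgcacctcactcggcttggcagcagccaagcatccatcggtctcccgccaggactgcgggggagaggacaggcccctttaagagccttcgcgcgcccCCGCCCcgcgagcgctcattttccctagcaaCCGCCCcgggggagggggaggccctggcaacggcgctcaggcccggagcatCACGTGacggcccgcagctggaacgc
Wdr5: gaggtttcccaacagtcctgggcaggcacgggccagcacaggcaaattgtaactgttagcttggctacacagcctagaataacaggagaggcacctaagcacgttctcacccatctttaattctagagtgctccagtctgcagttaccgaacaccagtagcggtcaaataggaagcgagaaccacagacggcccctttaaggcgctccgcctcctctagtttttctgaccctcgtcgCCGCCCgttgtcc
Rbbp5: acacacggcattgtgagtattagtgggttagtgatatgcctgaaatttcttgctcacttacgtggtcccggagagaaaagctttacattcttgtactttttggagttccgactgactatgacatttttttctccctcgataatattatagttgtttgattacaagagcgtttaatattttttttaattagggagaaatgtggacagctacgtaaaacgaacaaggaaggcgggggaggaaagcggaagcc
The Ezh1 window holds 1 match to the T-box letters, the Ezh2 window 3 CCAAT boxes, the Cbx6 window 2 GC boxes and 1 E-box, and the Wdr5 window 1 GC box, while none of these letters is in the Rbbp5 window. Their CpG counts are 14 for Ezh1, 23 for Ezh2, 20 for Cbx6, 12 for Wdr5 and 10 for Rbbp5.

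Values are FPKM, a fragment count divided by transcript length and by the library's mapped fragments. Summed FPKM ran from 531523 to 587798 per library, 12244 to 12442 genes reached 1 FPKM, and depth relative to WT 1, estimated from low values, was 0.863 to 1.19; absolute depth is unknown. The Evx1as transcript (5730457N03Rik) stood at 5.01, 8.81 and 7.39 FPKM in EVX1 KO, 0.0549, 0.104 and 0.0485 FPKM in Evx1as KO, and 5.36 and 6.75 FPKM in WT libraries. Evx1 itself stood at 26.3, 20.8 and 31.7 FPKM in EVX1 KO, 2.45, 3.84 and 0.541 FPKM in Evx1as KO, and 21.97 and 31.2 FPKM in WT libraries. The Evx1 transcript therefore gives no check of the EVX1 KO label, and "EVX1 KO" here means the libraries labelled so. The labelled cell type was checked with marker lists: all 7 pluripotency and epiblast markers were detected, with summed FPKM of 755 to 776 in EVX1 KO, 1123 to 1266 in Evx1as KO and 561 to 703 in WT. The 4 primitive streak and mesoderm markers summed to 299.9 to 331 FPKM in EVX1 KO, 38.1 to 133 FPKM in Evx1as KO and 305 to 349 FPKM in WT. Fibroblast or feeder markers summed to 20.4 to 26.4, 13.5 to 23.3 and 21.1 to 35.2 FPKM in EVX1 KO, Evx1as KO and WT (6 of 8 reached 1 FPKM in any library, Lum and Postn did not), and neural markers to 28.99 to 77.3, 69.0 to 92.9 and 72.4 to 91.0 FPKM (3 of 4 reached 1 FPKM). Nes made up most of the neural sum, and the neural markers differed among themselves. Sox1 had 3.00, 2.06 and 3.41 FPKM in Evx1as KO, 0.336 and 0.0284 FPKM in WT and under 0.1 FPKM in EVX1 KO. Pax6, under 1 FPKM throughout, was also highest in Evx1as KO in every library. For Tubb3 and Nes, Evx1as KO overlapped both other groups. The pluripotency and streak sums thus separate Evx1as KO from both other groups. The pluripotency sum also lay above WT in every EVX1 KO library. Single pluripotency markers did not all follow their sum. Pou5f1, Sox2, Utf1 and Dnmt3b were highest in Evx1as KO in every library, and Dnmt3b also lay above WT in every EVX1 KO library. Nanog and Lin28a overlapped between the knockouts and lay above WT in both, and Fgf5 lay above WT in both and was highest in EVX1 KO. The part of these marker differences in the differences below was not tested. In such bulk RNA, fewer cells of a type and less RNA per cell cannot be told apart.

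Most of the 38 genes were well expressed. Dpy30, Arid1a, Smarca4, Ash2l, Pcgf2, Men1, Smarcb1, Smarcd1, Smarcc1 and Dpf2 had means of at least 50 FPKM in all 3 groups, and Bmi1, Cbx8, Smarca2 and Phf19 had means under 2 FPKM in all 3. FPKM is per length, so these levels can be set side by side.

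**Figure D1:**
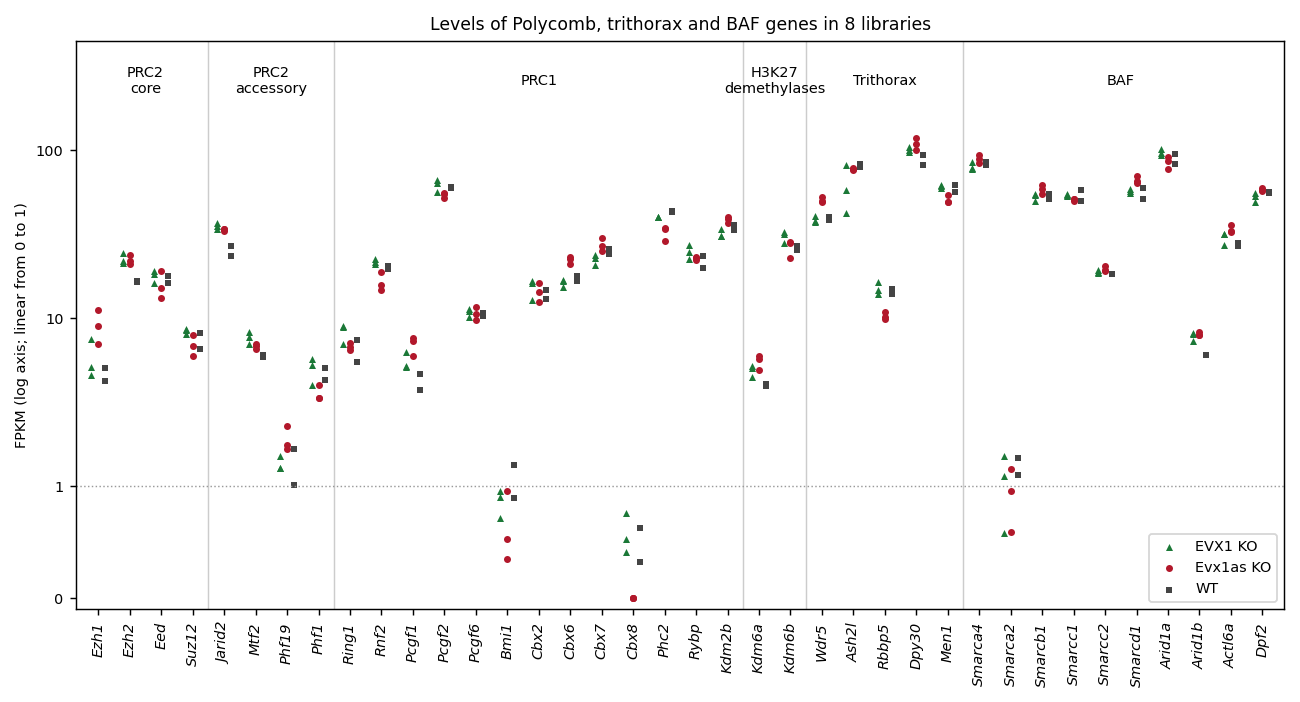
FPKM of the 38 genes in each of the 8 libraries, grouped by complex, on a vertical axis that is logarithmic above 1 FPKM and linear from 0 to 1. Triangles are EVX1 KO, circles Evx1as KO and squares WT libraries; for most genes the 3 groups lie close together, and Cbx8 is listed at 0 in all 3 Evx1as KO libraries.

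More of these genes were called in Evx1as KO against WT than in EVX1 KO against WT, as was so over all tested genes. A gene is called higher or lower at an adjusted p under 0.05 (limma on log2(FPKM + 1), Benjamini-Hochberg over the 13188 genes), and differences are given as log2 of (FPKM + 1) with standard errors. In EVX1 KO against WT, 1 of 36 was called higher (2.78%) and 0 lower, where 0.690% of all tested genes were called higher and 0.554% lower; at an unadjusted p under 0.05 the counts were 4 higher (11.1%) and 0 lower, beside 11.3% and 9.92% of all tested genes. In Evx1as KO against WT, 9 of 36 were called higher (25.0%) and 2 lower (5.56%), where 13.0% of all tested genes were called higher and 11.4% lower; at an unadjusted p under 0.05 the counts were 11 higher (30.6%) and 4 lower (11.1%), beside 20.4% and 18.1%. In EVX1 KO against Evx1as KO, 4 were called higher (11.1%) and 3 lower (8.33%), close to the 10.7% and 11.3% of all tested genes; at an unadjusted p under 0.05 they were 6 higher and 6 lower (16.7% each), beside 17.9% and 19.1%. The median log2 difference over the 36 was 0.06 in EVX1 KO against WT, 0.08 in Evx1as KO against WT and 0.02 in EVX1 KO against Evx1as KO, beside medians of 0.02, 0.02 and 0.00 over all tested genes. The comparisons with WT share the same 2 WT libraries.

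Counts of genes whose libraries did not overlap between groups gave a similar split. Every EVX1 KO library lay above both WT libraries for 10 genes (27.8%; 21.2% of all tested genes) and below them for 3 (8.33%; 17.9%). Every Evx1as KO library lay above both WT libraries for 15 genes (41.7%; 29.5%) and below them for 7 (19.4%; 26.2%). Every EVX1 KO library lay above all Evx1as KO libraries for 10 genes (27.8%; 20.1%) and below them for 8 (22.2%; 20.8%). The calls rest on few WT libraries: without WT 1 none of the 11 calls in Evx1as KO against WT was kept (9 higher and 3 lower at an unadjusted p under 0.05), while 10.8% of all tested genes were called. Without WT 2 there were 3 calls, all higher (8.33%, beside 5.95% of all tested genes called higher and 5.49% lower). Without Evx1as KO 1 there were 5, of which 3 were higher (8.33%, beside 8.17%) and 2 lower (5.56%, beside 8.05%). Without Evx1as KO 3 there were also 3 higher (8.33%, beside 7.22%) and 2 lower (5.56%, beside 6.64%). The share called higher among the 36 genes was thus near or below that over all tested genes without WT 1, Evx1as KO 1 or Evx1as KO 3.

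**Figure D2:**
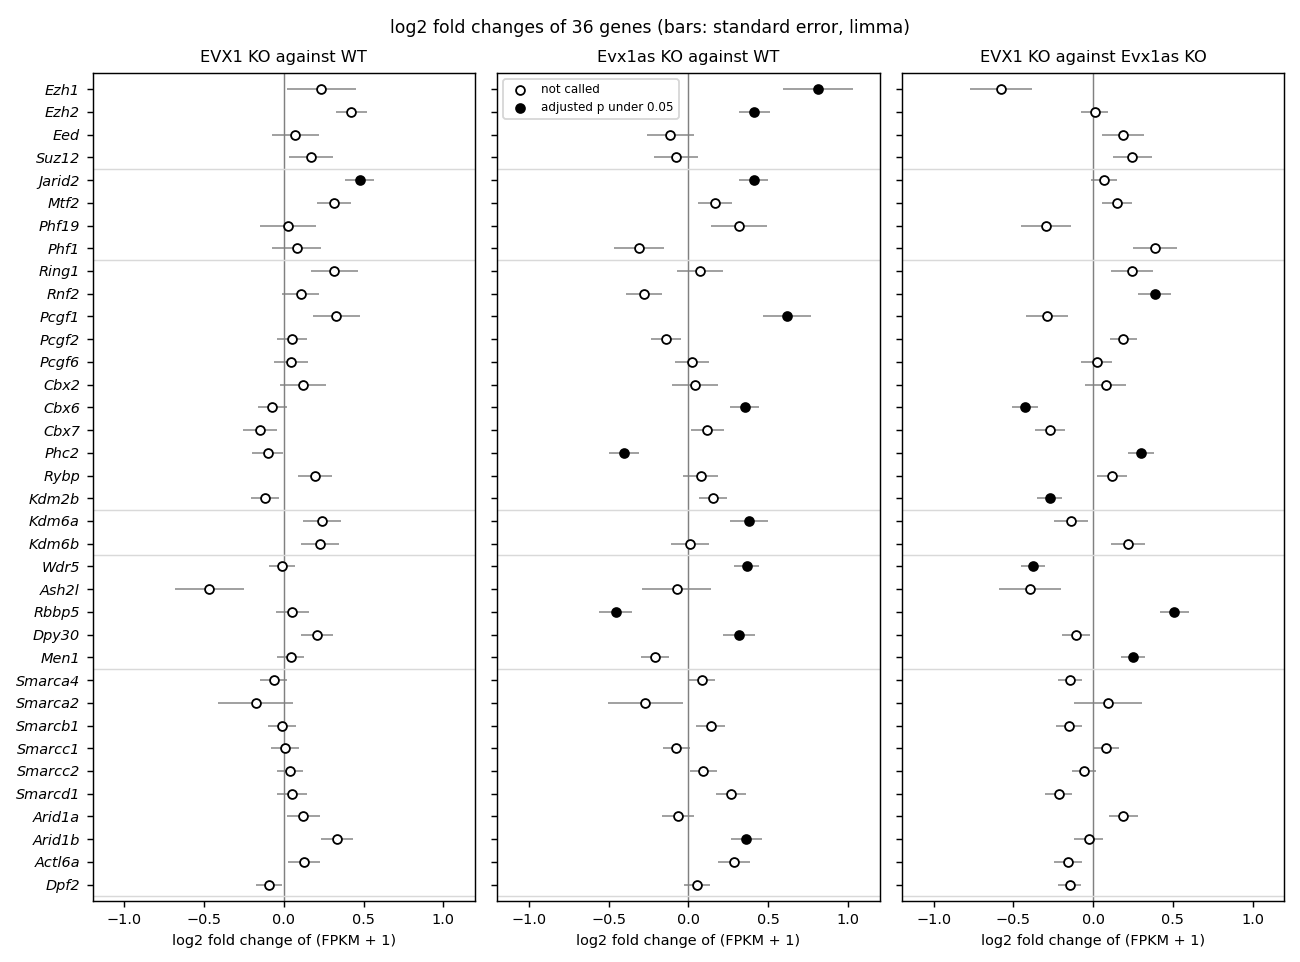
Log2 difference of (FPKM + 1) for the 36 tested genes, in the order of their complexes from PRC2 at the top to BAF at the bottom, with bars for the standard error from limma. Filled points have an adjusted p under 0.05: 1 in EVX1 KO against WT, 11 in Evx1as KO against WT and 7 in EVX1 KO against Evx1as KO.

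Both catalytic subunits of PRC2 rose in Evx1as KO, and its other core subunits did not pass the test. Ezh1 (chr11:101052428-101087764 in the deposited table) had 7.56, 5.12 and 4.60 FPKM in EVX1 KO, 8.98, 6.995 and 11.2 FPKM in Evx1as KO, and 5.07 and 4.25 FPKM in WT. All Evx1as KO libraries lay above WT, while EVX1 KO overlapped both groups. Ezh1 differed by 0.23 ± 0.22 in EVX1 KO against WT (adjusted p = 0.568), by 0.81 ± 0.22 in Evx1as KO against WT (adjusted p = 0.0271) and by -0.58 ± 0.20 in EVX1 KO against Evx1as KO (adjusted p = 0.0645). The difference between the knockouts was called with array weights (adjusted p = 0.00501) and without Evx1as KO 2 (0.0354) or EVX1 KO 1 (0.0247). Ezh2 (chr6:47480272-47545029), the main methyltransferase of dividing cells, had 21.2, 24.3 and 21.9 FPKM in EVX1 KO, 21.1, 22.1 and 23.9 FPKM in Evx1as KO, and 16.7 and 16.4 FPKM in WT. Both knockouts lay above WT in every library and overlapped each other. The log2 difference was 0.42 ± 0.10 in EVX1 KO against WT (adjusted p = 0.0696), 0.41 ± 0.10 in Evx1as KO against WT (adjusted p = 0.0165) and 0.01 ± 0.09 between the knockouts (adjusted p = 0.950). With array weights Ezh2 was also called higher in EVX1 KO against WT (adjusted p = 0.019). Eed, which reads the methyl mark, and Suz12, the scaffold, were not called: Eed averaged 18.0 ± 1.49 FPKM in EVX1 KO, 15.8 ± 2.97 in Evx1as KO (SD, n = 3 each) and 17.0 ± 1.19 in WT (n = 2), and Suz12 8.38 ± 0.322, 6.95 ± 1.00 and 7.38 ± 1.149 FPKM. Ezh1 made up 20.3% ± 5.13 of summed Ezh1 and Ezh2 FPKM in EVX1 KO, 28.6% ± 4.10 in Evx1as KO and 21.97% ± 1.90 in WT. The Ezh1 call was lost with no filter on low values (adjusted p = 0.0747) and without Evx1as KO 1, Evx1as KO 3, WT 1 or WT 2 (adjusted p 0.0661 to 0.150), and the Ezh2 call without Evx1as KO 3, WT 1 or WT 2 (0.0608 to 0.0811).

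Among the PRC2 accessory genes, Jarid2 rose in both knockouts. JARID2 is a DNA- and nucleosome-binding cofactor of one PRC2 form, and MTF2, PHF19 and PHF1 are the Polycomb-like proteins of the other. Jarid2 (chr13:44826142-45017012) had 37.0, 33.9 and 35.3 FPKM in EVX1 KO, 33.3, 34.1 and 33.8 FPKM in Evx1as KO, and 23.5 and 26.97 FPKM in WT. No knockout library overlapped WT. Its log2 difference was 0.48 ± 0.09 in EVX1 KO against WT (adjusted p = 0.0460), 0.41 ± 0.09 in Evx1as KO against WT (adjusted p = 0.0129) and 0.07 ± 0.08 between the knockouts (adjusted p = 0.584). It was the 1 gene of the 36 called in EVX1 KO against WT. That call was lost in 11 of 16 other settings, among them the omission of any library except EVX1 KO 3 (adjusted p 0.0645 to 0.235), while the Evx1as KO call was lost in 1, without WT 1 (adjusted p = 0.0884).

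The 3 Polycomb-like genes were called in no comparison of the main model. Mtf2 had 7.71, 7.04 and 8.26 FPKM in EVX1 KO, 6.55, 7.01 and 6.85 FPKM in Evx1as KO, and 5.90 and 6.02 FPKM in WT, with no overlap between any of the groups. Its log2 differences were 0.31 ± 0.11 in EVX1 KO against WT (adjusted p = 0.145) and 0.16 ± 0.11 in Evx1as KO against WT (adjusted p = 0.281). Phf1 had 5.69, 5.30 and 4.03 FPKM in EVX1 KO, 3.34, 3.34 and 4.02 FPKM in Evx1as KO, and 4.27 and 5.05 FPKM in WT. The Evx1as KO libraries were the lowest of the 8 for Phf1 (-0.31 ± 0.16 against WT, adjusted p = 0.175). EVX1 KO exceeded Evx1as KO by 0.39 ± 0.14 for Phf1 (adjusted p = 0.0757). That difference was called with chromosome centring (adjusted p = 0.0479) and without EVX1 KO 3 (0.0308). It was also called with array weights (0.0117), where 42.1% of all tested genes were called. Phf19 was the lowest of the family, at 1.36 ± 0.128 FPKM in EVX1 KO, 1.90 ± 0.322 in Evx1as KO and 1.34 ± 0.468 in WT.

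Of 11 PRC1 genes tested, Pcgf1 and Cbx6 rose (18.2%) and Phc2 fell (9.09%) in Evx1as KO against WT, and 8 were not called; these shares are near the 13.0% and 11.4% of all tested genes. PCGF1 is the RING partner of a variant PRC1 that contains KDM2B. Pcgf1 (chr6:83028383-83030849) had 6.28, 5.12 and 5.203 FPKM in EVX1 KO, 7.37, 5.93 and 7.68 FPKM in Evx1as KO, and 3.73 and 4.69 FPKM in WT. All knockout libraries lay above WT, with differences of 0.33 ± 0.15 in EVX1 KO (adjusted p = 0.244) and 0.62 ± 0.15 in Evx1as KO (adjusted p = 0.0178). Cbx6 (chr15:79654327-79664763), one of the chromodomain subunits, had 16.9, 15.3 and 16.8 FPKM in EVX1 KO, 22.4, 23.1 and 21.2 FPKM in Evx1as KO, and 17.8 and 16.7 FPKM in WT. Evx1as KO stood above both other groups without overlap: the difference was -0.07 ± 0.09 in EVX1 KO against WT (adjusted p = 0.685), 0.35 ± 0.09 in Evx1as KO against WT (adjusted p = 0.0243) and -0.43 ± 0.08 in EVX1 KO against Evx1as KO (adjusted p = 0.00836). Phc2 (chr4:128331945-128430125), a polyhomeotic subunit whose SAM domain links PRC1 complexes together, had 40.3, 40.0 and 40.1 FPKM in EVX1 KO, 28.98, 34.4 and 34.1 FPKM in Evx1as KO, and 43.6 and 42.7 FPKM in WT. Here Evx1as KO was the lowest group in every library, by -0.40 ± 0.09 against WT (adjusted p = 0.0159), and EVX1 KO exceeded Evx1as KO by 0.30 ± 0.08 (adjusted p = 0.0345). In Evx1as KO against WT, the Pcgf1 call was lost without Evx1as KO 1, Evx1as KO 3 or WT 1 (adjusted p 0.0545 to 0.120), the Cbx6 call without Evx1as KO 1, Evx1as KO 2, WT 1 or WT 2 (0.0584 to 0.126) and the Phc2 call without WT 1 or WT 2 (0.0668 and 0.0819). Between the knockouts the Cbx6 call was kept in all 16 other settings, and the Phc2 call was lost without Evx1as KO 1, Evx1as KO 3 or any 1 of the EVX1 KO libraries (0.0649 to 0.103). With the replicate number in the model, the Cbx6 call in Evx1as KO against WT (adjusted p = 0.0563) and the Phc2 call between the knockouts (0.0596) were also lost.

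A further pair of PRC1 genes differed between the knockouts. Rnf2 (chr1:153316535-153347953), which encodes the main H2A ubiquitin ligase RING1B, had 22.6, 21.6 and 21.0 FPKM in EVX1 KO, 14.7, 18.97 and 15.8 FPKM in Evx1as KO, and 20.5 and 19.8 FPKM in WT. EVX1 KO was higher than Evx1as KO by 0.39 ± 0.10 (adjusted p = 0.0280); Evx1as KO against WT gave -0.28 ± 0.11 (adjusted p = 0.104). Kdm2b (chr5:123320684-123439101), the CpG-island-binding partner of PCGF1, had 31.1, 30.7 and 34.1 FPKM in EVX1 KO, 37.2, 40.3 and 38.9 FPKM in Evx1as KO, and 33.5 and 36.05 FPKM in WT. Evx1as KO was the highest group in every library, and EVX1 KO was lower than it by -0.27 ± 0.08 (adjusted p = 0.0385). The Rnf2 call was lost when each library was centred on its chromosome medians (0.16, adjusted p = 0.262), with no filter on low values (adjusted p = 0.0509) and without Evx1as KO 1, Evx1as KO 3, EVX1 KO 1 or EVX1 KO 2 (adjusted p 0.0646 to 0.0969), and the Kdm2b call without any 1 of the Evx1as KO libraries, EVX1 KO 1 or EVX1 KO 2 (0.0669 to 0.136). The Kdm2b call was also lost with the replicate number in the model (adjusted p = 0.0600).

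The remaining PRC1 genes were not called in any comparison. Ring1, the paralogue of Rnf2, averaged 8.27 ± 1.101 FPKM in EVX1 KO, 6.80 ± 0.337 in Evx1as KO and 6.47 ± 1.33 in WT. Pcgf2 (MEL18) was the most abundant of the 6 PCGF genes in the table, with 62.3 ± 5.44 FPKM in EVX1 KO, 54.4 ± 2.08 in Evx1as KO and 60.03 ± 0.374 in WT, which was 59.6% ± 1.14, 57.2% ± 0.140 and 58.5% ± 2.93 of the summed FPKM of Pcgf1, Pcgf2, Pcgf3, Pcgf5, Pcgf6 and Bmi1. Pcgf3, which is outside the 39 genes, was next with 22.1% ± 0.721, 21.6% ± 0.449 and 24.2% ± 2.62 of that sum in EVX1 KO, Evx1as KO and WT, and Pcgf1 made up 5.30% ± 0.585, 7.34% ± 0.717 and 4.08% ± 0.480. Bmi1, the paralogue of Pcgf2, had 0.712, 0.959 and 0.908 FPKM in EVX1 KO, 0.528, 0.955 and 0.350 FPKM in Evx1as KO, and 1.33 and 0.897 FPKM in WT. Among the chromodomain genes, Cbx7 was the highest (22.5 ± 1.497 FPKM in EVX1 KO, 27.4 ± 2.53 in Evx1as KO and 25.1 ± 1.30 in WT) and Cbx2 averaged 15.2 ± 2.10, 14.3 ± 1.81 and 13.9 ± 1.21 FPKM. Cbx8 was listed at 0.528, 0.757 and 0.410 FPKM in EVX1 KO, at 0 in all 3 Evx1as KO libraries, and at 0.320 and 0.628 FPKM in WT. Cbx8 lay below the filter, and a value listed at 0 may be a failed estimate. Its values are therefore a description, with no fold and no test. Rybp and Pcgf6, subunits of variant PRC1, differed by at most 0.19 on the log2 scale in any comparison.

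Of the demethylases that remove the PRC2 mark, Kdm6a (UTX) was called higher in Evx1as KO and Kdm6b (JMJD3) was not. Kdm6a (chrX:17739792-17856484) had 4.50, 5.202 and 5.10 FPKM in EVX1 KO, 5.96, 5.72 and 4.96 FPKM in Evx1as KO, and 4.08 and 3.96 FPKM in WT. Every knockout library lay above WT, with differences of 0.24 ± 0.12 in EVX1 KO (adjusted p = 0.286) and 0.38 ± 0.12 in Evx1as KO (adjusted p = 0.0479). That call sat at the threshold and was lost in 14 of 16 other settings, the omission of any library except EVX1 KO 1 included (adjusted p 0.0567 to 0.169). Kdm6b was several times more abundant, at 32.9, 31.8 and 28.1 FPKM in EVX1 KO, 28.6, 23.0 and 28.0 FPKM in Evx1as KO, and 27.1 and 25.4 FPKM in WT. Evx1as KO and WT overlapped for Kdm6b, while every EVX1 KO library lay above WT (0.23 ± 0.12, adjusted p = 0.3015).

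In the trithorax group, subunits of one core moved in opposite directions in Evx1as KO. WDR5, ASH2L, RBBP5 and DPY30 form the core that all COMPASS methyltransferases share. Wdr5 (chr2:27370666-27392055), its scaffold, had 38.2, 37.6 and 40.5 FPKM in EVX1 KO, 52.7, 49.9 and 49.3 FPKM in Evx1as KO, and 38.3 and 39.9 FPKM in WT. Evx1as KO was the highest group in every library, and EVX1 KO overlapped WT: the differences were -0.01 ± 0.08 in EVX1 KO against WT (adjusted p = 0.945), 0.36 ± 0.08 in Evx1as KO against WT (adjusted p = 0.0131) and -0.38 ± 0.07 in EVX1 KO against Evx1as KO (adjusted p = 0.00825). Rbbp5 (chr1:134373943-134402242), whose product activates the methyltransferase together with ASH2L, had 14.8, 14.04 and 16.5 FPKM in EVX1 KO, 10.2, 9.86 and 10.8 FPKM in Evx1as KO, and 14.99 and 14 FPKM in WT. Its pattern was the opposite: Evx1as KO was the lowest group in every library, by -0.46 ± 0.10 against WT (adjusted p = 0.0140), and EVX1 KO exceeded it by 0.51 ± 0.09 (adjusted p = 0.00634). Against WT the Wdr5 call was lost without WT 1 (adjusted p = 0.0750) and the Rbbp5 call without WT 1 (0.0849) or WT 2 (0.05), whereas both calls between the knockouts were kept in all 16 other settings.

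Dpy30, Men1 and Ash2l differed less firmly. Dpy30 (chr17:74698813-74723284), the small dimeric subunit, had 101, 98.1 and 105 FPKM in EVX1 KO, 119, 109 and 100.3 FPKM in Evx1as KO, and 81.6 and 93.9 FPKM in WT. It was called higher in Evx1as KO against WT (0.32 ± 0.10, adjusted p = 0.0480), a call lost in 14 of 16 other settings and without any 1 of the 8 libraries (adjusted p 0.0520 to 0.258). Men1 (chr19:6334978-6340894), which encodes menin, the partner of the MLL1 and MLL2 methyltransferases, had 61.0, 59.6 and 62.1 FPKM in EVX1 KO, 49.6, 54.4 and 49.1 FPKM in Evx1as KO, and 56.2 and 62.1 FPKM in WT. EVX1 KO was higher than Evx1as KO by 0.25 ± 0.08 (adjusted p = 0.0459), which was lost with no filter on low values (adjusted p = 0.0511) and without Evx1as KO 1, Evx1as KO 3 or any 1 of the EVX1 KO libraries (0.0789 to 0.150). That Men1 call was also lost with the replicate number in the model (adjusted p = 0.0731). Ash2l had 42.1, 58.1 and 82.1 FPKM in EVX1 KO, 77.0, 76.6 and 78.5 FPKM in Evx1as KO, and 79.7 and 83.2 FPKM in WT. EVX1 KO 1 and EVX1 KO 2 were the lowest of the 8 libraries and EVX1 KO 3 lay between the WT values, and no comparison called it (-0.47 ± 0.22 in EVX1 KO against WT, adjusted p = 0.254). Without EVX1 KO 3, Ash2l was called lower in EVX1 KO against WT (-0.71, adjusted p = 0.0344) and against Evx1as KO (-0.63, adjusted p = 0.0123).

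**Figure D3:**
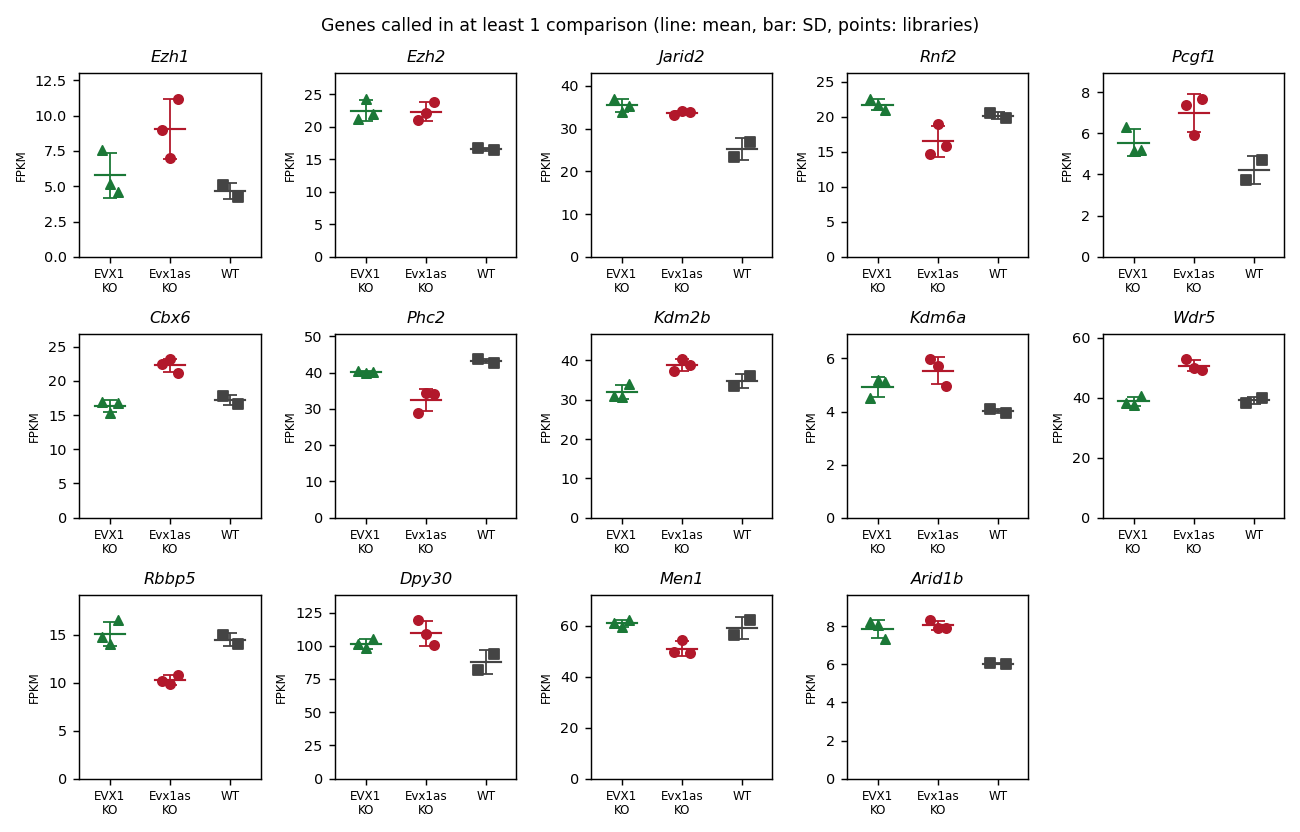
FPKM in each library of the 14 genes called in at least 1 comparison, with EVX1 KO, Evx1as KO and WT from left to right; horizontal lines are means and bars SDs, and every axis starts at 0. Cbx6 and Wdr5 are highest and Rbbp5, Phc2 and Men1 lowest in Evx1as KO, while both knockouts lie above WT for Ezh2, Jarid2 and Arid1b.

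Of 10 BAF genes tested, Arid1b was called higher in Evx1as KO against WT (1 of 10, beside 13.0% of all tested genes), 0 were called lower and none was called in the other comparisons. Every Evx1as KO library lay above both WT libraries for 5 of the 10 (50.0%, beside 29.5%) and below them for 0 (beside 26.2%). Arid1b (chr17:4995073-5347656), a DNA-binding ARID subunit that excludes its paralogue ARID1A from the same complex, had 8.22, 8.09 and 7.34 FPKM in EVX1 KO, 8.32, 7.91 and 7.91 FPKM in Evx1as KO, and 6.05 and 6.01 FPKM in WT. All 6 knockout libraries lay above WT, and the differences were 0.34 ± 0.10 in EVX1 KO against WT (adjusted p = 0.114) and 0.36 ± 0.10 in Evx1as KO against WT (adjusted p = 0.0293). The Evx1as KO call was lost without any 1 of the Evx1as KO or WT libraries or EVX1 KO 2 (adjusted p 0.0506 to 0.112). With the replicate number in the model, that Arid1b call was lost too (adjusted p = 0.05095). Arid1a, far more abundant, had 96.6, 102 and 93.8 FPKM in EVX1 KO, 87.1, 91.9 and 77.5 FPKM in Evx1as KO, and 83.3 and 95.8 FPKM in WT. For Arid1a the groups overlapped WT.

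Smarca4 (BRG1) supplied nearly all of the ATPase transcript, at 98.7%, 99.0% and 98.5% of summed Smarca4 and Smarca2 FPKM in EVX1 KO, Evx1as KO and WT. Smarca2 (BRM) had 1.147, 0.586 and 1.51 FPKM in EVX1 KO, 0.589, 0.956 and 1.27 FPKM in Evx1as KO, and 1.17 and 1.47 FPKM in WT. Smarcc1 (BAF155) averaged 54.1 ± 0.633 FPKM in EVX1 KO, 51.0 ± 1.04 in Evx1as KO and 54.0 ± 5.79 in WT, and its paralogue Smarcc2 (BAF170) 18.9 ± 0.479, 19.7 ± 0.658 and 18.4 ± 0.110 FPKM. Smarcd1 had 56.0, 58.8 and 57.5 FPKM in EVX1 KO, 70.5, 64.3 and 65.8 FPKM in Evx1as KO, and 51.1 and 60.1 FPKM in WT (0.27 ± 0.09 in Evx1as KO against WT, adjusted p = 0.0664). Actl6a, the actin-related subunit of proliferating cells, had 27.3, 31.7 and 32.0 FPKM in EVX1 KO, 35.9, 32.7 and 33.3 FPKM in Evx1as KO, and 27.02 and 28.2 FPKM in WT (0.29 ± 0.10 in Evx1as KO against WT, adjusted p = 0.0639). For both, every Evx1as KO library lay above both other groups. Smarcb1, Smarca4 and Dpf2 differed by -0.15 to 0.14 on the log2 scale over the 3 comparisons.

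The balance between paralogues was described as the log2 ratio of (FPKM + 1) within a library for 12 pairs. The exact two-sided permutation test cannot go below 0.2 for 3 against 2 libraries or 0.1 for 3 against 3, and after Benjamini-Hochberg adjustment over the 36 tests the smallest p was 0.45, so no ratio passed. Groups did not overlap for 1 of the 12 pairs in EVX1 KO against WT, 8 in Evx1as KO against WT and 5 in EVX1 KO against Evx1as KO. No share over other gene pairs was computed, so these counts are only a description. For single genes, 29.5% of all tested genes lay above and 26.2% below WT in every Evx1as KO library. Cbx8 over Cbx7 is among the 8 and the 5. Cbx8 was below the filter and listed at 0 in every Evx1as KO library, so there the added 1 sets its term. The pair that separated all 3 groups was Arid1b over Arid1a, with ratios of -3.41, -3.50 and -3.51 in EVX1 KO, -3.24, -3.38 and -3.14 in Evx1as KO, and -3.58 and -3.79 in WT. Evx1as KO was highest, EVX1 KO next and WT lowest. Kdm6b over Kdm6a was 2.62, 2.40 and 2.26 in EVX1 KO, 2.09, 1.84 and 2.28 in Evx1as KO, and 2.47 and 2.41 in WT. Evx1as KO lay below WT and overlapped EVX1 KO for that pair. Phf1 over Mtf2 was -0.38, -0.35 and -0.88 in EVX1 KO, -0.80, -0.88 and -0.65 in Evx1as KO, and -0.39 and -0.21 in WT. Evx1as KO again lay below WT and overlapped EVX1 KO through EVX1 KO 3.

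**Figure D4:**
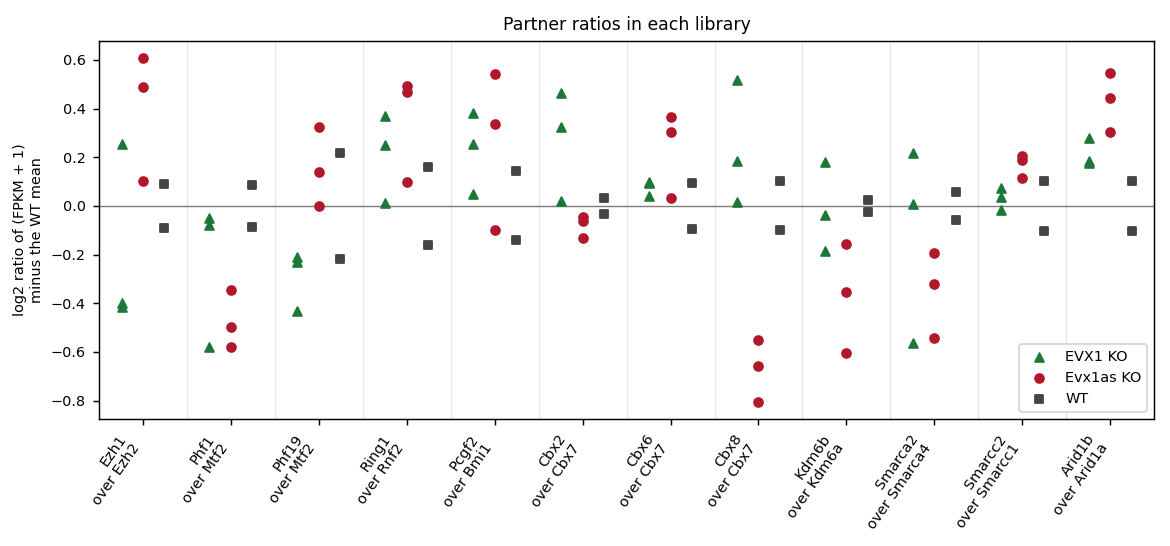
Log2 ratio of (FPKM + 1) of the first gene over its paralogue in each library, with the WT mean of each pair set to 0. Evx1as KO libraries lie above both WT libraries for Ezh1 over Ezh2, Smarcc2 over Smarcc1 and Arid1b over Arid1a, and below them for Phf1 over Mtf2, Cbx2 over Cbx7, Cbx8 over Cbx7, Kdm6b over Kdm6a and Smarca2 over Smarca4. Cbx8 itself is listed at 0 in every Evx1as KO library.

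Some of these genes lie on chromosomes whose genes shifted together. Chromosome medians were taken over the tested genes that averaged 5 FPKM or more. The median log2 deviation of 505 genes on chromosome 8 was -0.38, -0.30 and 0.08 in EVX1 KO, 0.16, 0.15 and 0.15 in Evx1as KO, and 0.11 and 0.01 in WT, and Ash2l lies there. Over 470 genes on chromosome 1, where Rnf2 and Rbbp5 lie, it was 0.14, 0.13 and 0.12 in EVX1 KO, -0.10, -0.09 and -0.09 in Evx1as KO, and 0.02 and -0.10 in WT. Chromosome 14 shifted too and holds none of the 38 genes, and medians on the other 17 chromosomes lay between -0.06 and 0.05. With each library centred on its chromosome medians, the Ash2l difference in EVX1 KO against WT was -0.21 (adjusted p = 0.387). The Rnf2 call between the knockouts was lost, as given above, and Rbbp5 kept both calls, at 0.29 in EVX1 KO against Evx1as KO (adjusted p = 0.0492) and -0.40 in Evx1as KO against WT (adjusted p = 0.0191).

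**Figure D5:**
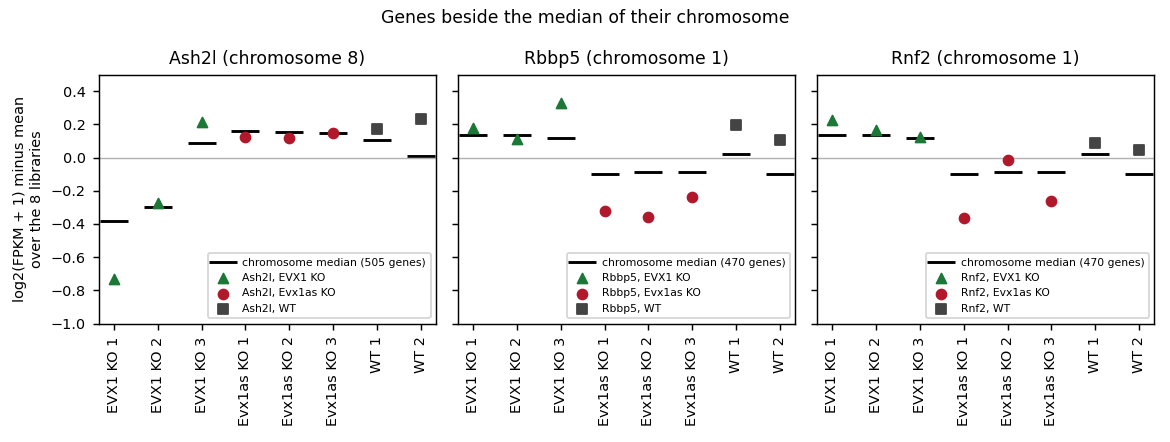
Log2(FPKM + 1) of Ash2l, Rbbp5 and Rnf2 in each library, as the difference from the mean over the 8 libraries. Black bars are the median of the tested genes on the same chromosome that averaged 5 FPKM or more. Ash2l and the chromosome 8 median are both lowest in EVX1 KO 1 and EVX1 KO 2, and the Rbbp5 values of the Evx1as KO libraries lie below the chromosome 1 median.

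Another 59 genes of the same complexes, of which 55 were tested, were read from the same model. In EVX1 KO against WT, 3 rose and 0 fell (5.45% and 0% beside 0.690% and 0.554% of all tested genes; at an unadjusted p under 0.05, 25.5% and 5.45% beside 11.3% and 9.92%). In Evx1as KO against WT, 11 rose and 7 fell (20% and 12.7% beside 13.0% and 11.4%). At an unadjusted p under 0.05 the shares there were 21.8% and 14.5%, near the 20.4% and 18.1% of all tested genes. In EVX1 KO against Evx1as KO, 13 were higher and 3 lower (23.6% and 5.45% beside 10.7% and 11.3%). The unadjusted shares for that comparison were 25.5% and 12.7%, beside 17.9% and 19.1%. By complex in Evx1as KO against WT, 1 rose and 1 fell of 4 PRC2 genes, 3 and 2 of 17 PRC1 genes, 3 and 1 of 16 trithorax genes, and 4 and 3 of 18 BAF genes. The 3 that rose in EVX1 KO were Rbbp7, Rbbp4 and Kdm5b. Rbbp7 and Rbbp4 encode the histone-binding WD-repeat subunits that PRC2 shares with other complexes, and Rbbp7 had 119, 106 and 109 FPKM in EVX1 KO, 90.7, 83.7 and 83.4 FPKM in Evx1as KO, and 58.1 and 72.8 FPKM in WT. EVX1 KO was the highest and WT the lowest group in every library for Rbbp7 (0.76 ± 0.11 in EVX1 KO against WT, adjusted p = 0.0256) and for Rbbp4 (0.50 ± 0.09, adjusted p = 0.0419). Kdm5b, an H3K4 demethylase on chromosome 1, differed by 0.47 ± 0.08 in EVX1 KO against WT (adjusted p = 0.0397). These calls were lost in 7 (Rbbp7), 10 (Rbbp4) and 11 (Kdm5b) of 16 other settings, among them the omission of WT 1 (adjusted p 0.163, 0.222 and 0.211), and for Kdm5b also chromosome centring (0.0982).

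Among the wider list's largest called differences in Evx1as KO against WT were those of Bcor, Auts2 and Setd1b. Bcor, the scaffold of the PCGF1 complex, had 14.5, 17.8 and 14.8 FPKM in EVX1 KO, 9.21, 10.8 and 8.77 FPKM in Evx1as KO, and 20.8 and 18.7 FPKM in WT. It was lowest in Evx1as KO in every library (-0.97 ± 0.13 against WT, adjusted p = 0.00187), the opposite direction to Pcgf1. Auts2, of a PRC1 form with PCGF3 or PCGF5, had 5.24, 6.08 and 4.93 FPKM in EVX1 KO, 11.6, 10.3 and 12.5 FPKM in Evx1as KO, and 5.16 and 5.90 FPKM in WT. It was highest in Evx1as KO in every library (0.93 ± 0.13 against WT, adjusted p = 0.00227). Setd1b, an H3K4 methyltransferase, had 9.08, 9.31 and 10.7 FPKM in EVX1 KO, 7.06, 6.88 and 5.67 FPKM in Evx1as KO, and 12.03 and 12.2 FPKM in WT (-0.80 ± 0.12 in Evx1as KO against WT, adjusted p = 0.00306). The calls of these 3 genes in Evx1as KO against WT, and in EVX1 KO against Evx1as KO, were kept in all 16 other settings.

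The other named genes of the wider list in Evx1as KO against WT were the BAF genes Dpf3, Bcl11a and Bcl7a. Dpf3, a tissue-specific alternative to Dpf2, had 0.870, 1.49 and 1.12 FPKM in EVX1 KO, 0, 0.106 and 0.199 FPKM in Evx1as KO, and 2.06 and 1.14 FPKM in WT. It reached 1 FPKM in EVX1 KO and WT libraries only and so passed the filter through the groups where it is high; its values are a description, with no test, although the counts above include it (1 of the 3 BAF genes that fell in Evx1as KO against WT, and 1 of the 13 that were higher in EVX1 KO against Evx1as KO). Bcl11a rose by 1.00 ± 0.20 (adjusted p = 0.00880; lost without WT 2, 0.0630) and Bcl7a by 0.75 ± 0.17 (adjusted p = 0.0155; lost without Evx1as KO 3, WT 1 or WT 2, 0.0544 to 0.0961). In EVX1 KO against Evx1as KO the largest called differences beside Dpf3 were Auts2 (-0.96 ± 0.11), Scml2 (0.77 ± 0.24), Bcor (0.66 ± 0.11), E130012A19Rik (0.57 ± 0.09), which encodes the PRC2 cofactor EPOP, and Brd7 (-0.56 ± 0.15). Scml2, a PRC1-associated gene, was spread over 7.07, 4.83 and 2.76 FPKM in EVX1 KO, and its call was lost in 9 of 15 other settings, without any 1 of EVX1 KO 1, EVX1 KO 2, the Evx1as KO or the WT libraries among them (adjusted p 0.0686 to 0.129), and it averaged 4.89 ± 2.16, 2.30 ± 0.0961 and 1.83 ± 0.0321 FPKM in EVX1 KO, Evx1as KO and WT (0.99 ± 0.26 in EVX1 KO against WT, adjusted p = 0.0928). Brd7, a PBAF subunit on chromosome 8, lost its call without Evx1as KO 1, Evx1as KO 3, EVX1 KO 1 or EVX1 KO 2 (0.0527 to 0.0893), with no filter on low values (0.0696) and with chromosome centring (-0.20, adjusted p = 0.0825).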

How the data were processed

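RNA was extracted with TRIzol, mRNA was isolated on Dynabeads and libraries were made with a TruSeq Stranded mRNA kit, per the labels' protocols. CASAVA, TopHat2 2.0.11 and the builds mm10 and mm9 appear, without their roles, per the submitters' processing notes. The authors deposited 1 table of FPKM values for all 8 libraries; for its program, annotation, strand setting and depth, nothing is given in the sources used here. Genes that share reads with an overlapping or antisense gene are therefore uncertain. Of 45772 lines, 3527 were blank, and 2660 symbols on several lines held the same values and were used once. All 38 genes matched RefSeq on GRCm38.p6 by chromosome, but only 8 overlapped it in position, so gene positions are those of the deposited table, whose build is not GRCm38, and promoters are RefSeq's on GRCm38.p6. Whole reads could not be recovered from the low values, so no count test was run and no counting interval is given.

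Genes that reached 1 FPKM in 2 or more of the 8 libraries entered 1 model of log2(FPKM + 1) with a mean per group (limma 3.58.1, R 4.3.3, empirical Bayes with trend, two-sided, Benjamini-Hochberg threshold 0.05), with no covariate. The procedure was run on simulated data with independent noise for each gene. In the real data genes of some chromosomes shifted together, so that run cannot show how the procedure performs here. FPKM were not rescaled. Fold changes on this scale understate changes of low genes. Ratios were tested with the exact permutation test of scipy 1.17.1 (Python 3.11.15, pandas 2.3.3, numpy 2.4.6, matplotlib 3.10.9). Genes called in any comparison and genes of a paralogue pair may be given in every library; of the wider list, up to 6 called genes per comparison were named by size of the log2 difference. One planned pair, Phc2 over Phc1, was not computed, since Phc1 was not analysed here. The genes and lists were chosen with earlier results of these data known. Alternatives were another pseudocount (0.1), no filter, a filter of 5 FPKM, median-ratio scaling, centring on chromosome medians (chromosomes with 20 or more genes that averaged 5 FPKM or more), only the groups compared, array weights, a replicate block and each library left out in turn. For the wider list these were added after seeing the data.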

Additional observations from a re-analysis of the deposited data

How the results depend on the processing

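No difference of the 36 genes or the wider list that was called reversed its sign under any alternative. For the calls among the 36 genes (1 for EVX1 KO and 11 for Evx1as KO against WT, 7 between the knockouts), leaving out 1 library gave 0 to 2 in EVX1 KO against WT, 0 to 11 in Evx1as KO against WT and 3 to 7 between the knockouts. The count in EVX1 KO against WT was 0 with no filter, with median-ratio scaling and with only the groups compared, and 3 with array weights, which also gave 18 (10 higher, 8 lower) between the knockouts. Over all tested genes 0.117%, 1.28% and 0.276% were called with no filter, median-ratio scaling and only the groups compared, beside 1.24% in the main model. With array weights, 8.33% of the 36 were called in EVX1 KO against WT (all tested genes 8.70%) and 50.0% between the knockouts (42.1%). Without Evx1as KO 3 or EVX1 KO 2, 8.33% were called between the knockouts, beside 10.7% and 11.1% of all tested genes. Of single values, 93 lost a call, 22 gained one and 1607 stayed on their side of the threshold, 52 of these changing sign while called in neither. Of the ratios, 212 moved by less than 1 SD and 16 by more, without WT 1 or WT 2 or with the pseudocount of 0.1. For the wider list (3 calls for EVX1 KO and 18 for Evx1as KO against WT, and 16 between the knockouts), no filter gave 0 for EVX1 KO and 11 for Evx1as KO, only the groups compared gave 0 for EVX1 KO, and array weights gave 8 for EVX1 KO and 26 between the knockouts. Leaving out 1 library gave it 0 to 8, 5 to 18 and 7 to 14 calls in the same order. Over all tested genes, no filter called 0.117% in EVX1 KO against WT and 10.4% in Evx1as KO against WT. With only the groups compared, 0.276% were called in EVX1 KO against WT. Array weights called 8.70% in EVX1 KO against WT and 42.1% between the knockouts, beside 8 and 26 of 55 in the wider list. No share was set beside the wider list's counts with 1 library left out, so those cannot tell its changes from those of all genes. A group left with 1 library is assumed to vary like the others.

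Replicate numbers were examined as a possible pairing. Same-numbered libraries of different groups had correlations of deviations from group means of -0.099 to 0.076. The highest correlation, 0.161, was between Evx1as KO 3 and EVX1 KO 1. In groups of 2 or 3 libraries these deviations sum to 0, so the correlations cannot tell whether same-numbered libraries shared a batch or culture. With the replicate block, 0 of the 36 genes were called in EVX1 KO against WT, beside 0.212% of all tested genes. In Evx1as KO against WT 7 were called (5 higher, 2 lower), which is 19.4% beside 19.5%. Between the knockouts 4 were called (2 higher, 2 lower), which is 11.1% beside 19.4%. The wider list had 0, 14 and 14 calls in these comparisons. Over all tested genes, EVX1 KO against WT had 91 higher and 73 lower calls, 12 and 16 with no filter, 16 and 19 with only the groups compared, 607 and 541 with array weights, 14 and 14 with the replicate block, and between 2 and 284 higher and 1 and 359 lower with 1 library left out. EVX1 KO against Evx1as KO had 1412 and 1491, and 2708 and 2844 with array weights. Low levels (Bmi1, Cbx8, Smarca2, Dpf3) rest on few reads of unknown number.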
